A study of Disanthus cercidifolius subsp. longipes with 9 samples.

Results

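The comparison was between the latest and the intermediate stage of leaf development in *Disanthus cercidifolius* var. *longipes*, a deciduous shrub of the witch hazel family. RNA of leaves from branch tips had been sequenced at 3 developmental stages named F1 (young leaves), F2 and F3, and the comparison F3 over F2 used 6 of the 9 libraries of the series, 3 of each stage. F3 leaves were the mature leaves and F2 leaves the nearly mature ones, and the sample labels date them to July 26 and July 23. The study's methods instead place the sampling of F3 in June and that of F2 in May, so the time between the stages is uncertain. By either source each stage was sampled on a single date, so leaf stage and sampling date, with its season and weather, cannot be told apart. The labels name no treatment. By the methods, leaves came from several nursery plants raised from stem cuttings and were taken on the sunny side on sunny mornings, but neither source ties a library to a plant, so the p-values measure the spread between these libraries. The 6 libraries were chosen by their stage labels alone, and all 24385 transcript clusters of the deposited table were kept. No genome was used, and a cluster is known by its best match to a protein of another species.

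A leaf that stops expanding stops loosening its cell walls and depositing new cuticle, and turns from building its photosynthetic machinery to maintaining it. Light-harvesting chlorophyll a/b-binding proteins of the antenna capture light, the Calvin cycle fixes carbon, and starch made by day is degraded by amylases at night. Flavonoids, waxes and early light-induced proteins shield leaf tissue from excess light, while dehydrins and heat shock proteins protect other proteins under water loss and heat.

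The F3 libraries held 8657054 to 10311846 counts in the table and the F2 libraries 9581197 to 14284676 counts. Replicates differed by more than sampling noise, with a chi-square per degree of freedom of 6.77 to 9.18, and no library was counted as a copy of another. Over log2(FPKM + 1), where FPKM is the fragment count scaled to transcript length and library size, the distances between F3 and F2 libraries were 217.9 to 222.1, and those between libraries of 1 stage 53.5 to 64.2. The table held 39.3% to 39.8% of the fragments of the F3 libraries and 47.6% to 47.8% of those of the F2 libraries, as far as counts and FPKM together show it.

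A cluster was called where edgeR's quasi-likelihood test gave an adjusted p (Benjamini-Hochberg) under 0.05 with at least a 2-fold change, which held for 15923 clusters (65.3% of all). Calls were common in both directions, 7184 clusters (29.5% of all) being higher at F3 and 8739 (35.8% of all) lower, and the shares of each gene class below are to be read beside these. The authors had kept only clusters called in at least 1 of their own comparisons, so these shares are of the table and not of the leaf transcriptome. The median log2 fold change over all clusters was -0.37 with the scaling used, -0.19 with RLE scaling, and the counts of higher and lower clusters were then 7898 and 7672. Large changes leaned to the lower side, since 3337 called clusters were at least 8-fold lower at F3 and 2012 at least 8-fold higher. F3 and F2 libraries did not overlap in FPKM in 7033 of the higher clusters and 8227 of the lower clusters. Separated libraries in a named cluster below are therefore usual for any called cluster. For the largest rises and falls, separation was also a condition of being named. A named protein match was held by 61.6% of the higher clusters, 59.0% of the lower clusters and 60.2% of all.

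**Figure D1:**
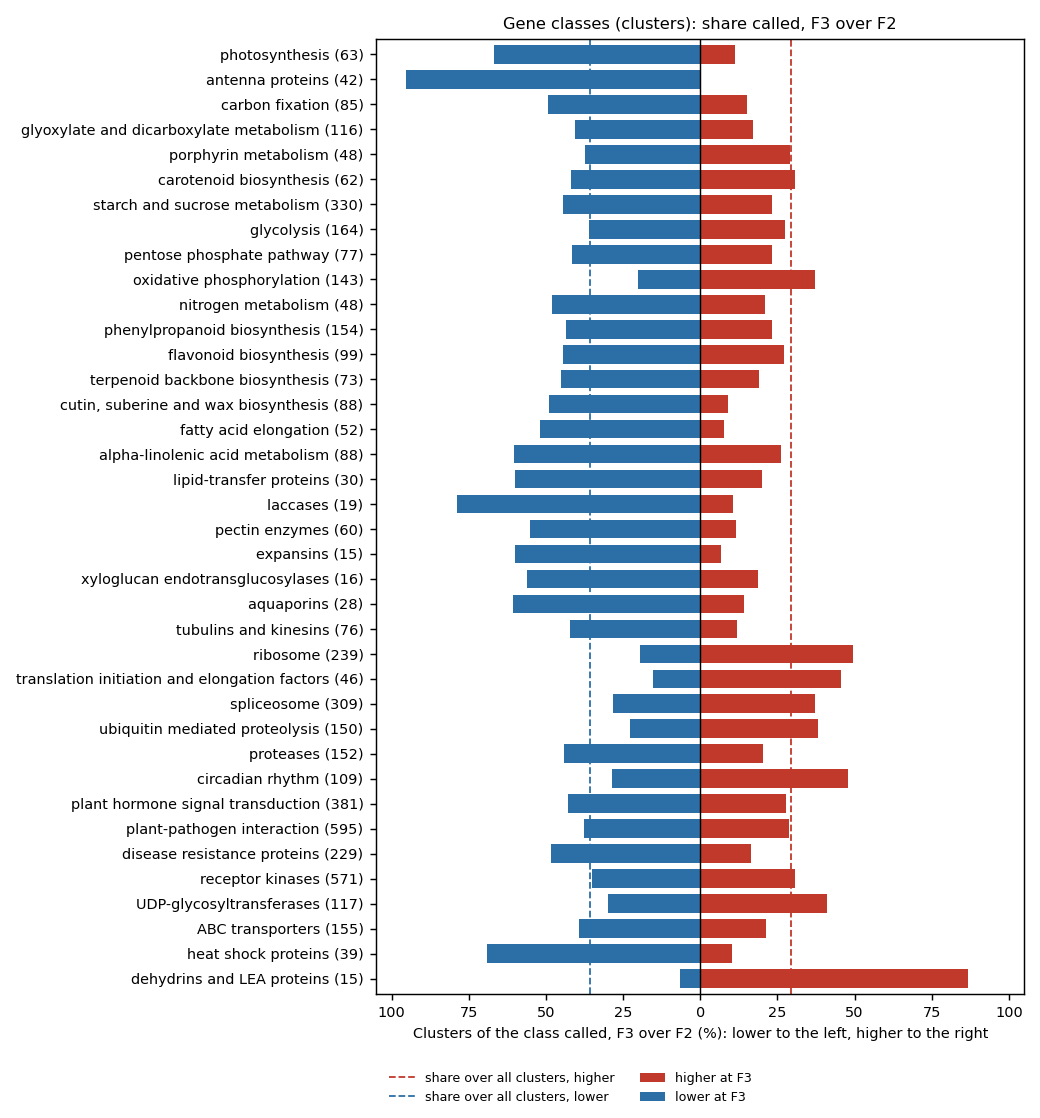
Share of the clusters of 38 gene classes called lower (left, blue) or higher (right, red) at F3 than at F2, in percent of the clusters of the class; the dashed lines are the shares over all 24385 clusters, 35.8% lower and 29.5% higher. Antenna proteins, laccases, heat shock proteins and surface lipid classes lie far to the left, and dehydrins, ribosome and circadian rhythm clusters to the right.

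Transcripts of the light-harvesting antenna were lower at F3 almost throughout. Of 42 antenna clusters 40 fell and 0 rose, with a median log2 fold change of -2.76, and their summed level was 16196 ± 561 FPKM at F3 and 72730 ± 1701 FPKM at F2 (SD, n = 3 each). CAB37 of photosystem II (Cluster-33836.1) had 1789.6, 1773 and 1647 FPKM in the F3 libraries, against 9880.2, 9908 and 10066 FPKM in the F2 libraries (log2 fold change -2.68 ± 0.06 (SE), adjusted p = 3.3e-09). CAB6 (Cluster-39499.0), an antenna protein of photosystem I, had 1265, 1203 and 1229 FPKM at F3, against 5502, 5533 and 5766 FPKM at F2 (log2 fold change -2.35 ± 0.06 (SE), adjusted p = 5.9e-09). In both clusters every F3 library lay below every F2 library. Because whole leaves were sequenced, fewer cells of a type and less RNA per cell cannot be told apart here.

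The reaction centres and the electron chain were mostly lower too, and most of the few clusters that rose matched 1 enzyme. In the photosynthesis pathway 42 of 63 clusters fell, 7 rose and 14 were not called, and the summed level was 16105 ± 439 FPKM at F3 and 39475 ± 167 FPKM at F2. Photosystem I reaction centre subunit V (Cluster-43003.0) had 1197, 1159 and 1148 FPKM at F3, against 3614, 3540.1 and 3594 FPKM at F2 (log2 fold change -1.78 ± 0.04 (SE), adjusted p = 1.8e-09). The photosystem II 10 kDa polypeptide (Cluster-9532.195) had 2299.7, 2396 and 2056 FPKM at F3, against 6129.7, 6158 and 6140.4 FPKM at F2 (log2 fold change -1.61 ± 0.09 (SE), adjusted p = 6.6e-07). No library of F3 reached the level of an F2 library in either. Of the 7 clusters that rose, 5 matched ferredoxin-NADP reductase, which passes electrons from ferredoxin to NADP. The others matched ferredoxin-3 and the photosystem II D2 protein, with means of 3.21 and 1.09 FPKM at F3. The reductase clusters, looked up after their values were seen, share 1 cluster number, and the most abundant of them (Cluster-47614.6) had 815, 805 and 814 FPKM at F3, against 267, 264 and 266 FPKM at F2 (log2 fold change 1.44 ± 0.06 (SE), adjusted p = 6.6e-08). The summed level of that number was 838 ± 6.4 FPKM at F3 and 275 ± 1.1 FPKM at F2.

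Carbon fixation clusters leaned lower as well, and the pathway of photorespiration did so less clearly. Of 85 carbon fixation clusters 42 fell and 13 rose, and of 116 clusters of glyoxylate and dicarboxylate metabolism, which holds photorespiration, 47 fell and 20 rose. The share of the second that fell, 40.5%, was near the 35.8% over all clusters. With RLE scaling 36 of the 116 fell and 21 rose, beside 7672 lower and 7898 higher of all 24385 clusters. The chloroplast fructose-bisphosphate aldolase 2 (Cluster-26655.4) had 4274, 4215 and 4167 FPKM at F3, against 9867, 10023 and 10468 FPKM at F2 (log2 fold change -1.43 ± 0.05 (SE), adjusted p = 1.9e-08). Catalase isozyme 1 (Cluster-44332.9), which breaks down the hydrogen peroxide of photorespiration, had 593, 573 and 595 FPKM at F3, against 1518, 1588 and 1651 FPKM at F2 (log2 fold change -1.60 ± 0.06 (SE), adjusted p = 3.4e-08). Cytosolic fructose-1,6-bisphosphatase (Cluster-57131.0), an enzyme of sucrose synthesis that the carbon fixation pathway also lists, went the other way with 335, 338 and 320.2 FPKM at F3, against 107, 106 and 106 FPKM at F2 (log2 fold change 1.46 ± 0.08 (SE), adjusted p = 4.9e-07). The chloroplast carbonic anhydrase (Cluster-45903.2), listed under nitrogen metabolism, had 2074, 2047 and 2157 FPKM at F3, against 4521, 4506 and 4403 FPKM at F2 (log2 fold change -1.26 ± 0.04 (SE), adjusted p = 2.2e-08), and in that pathway 23 of 48 clusters fell and 10 rose. None of these 4 clusters overlapped between the stages.

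**Figure D2:**
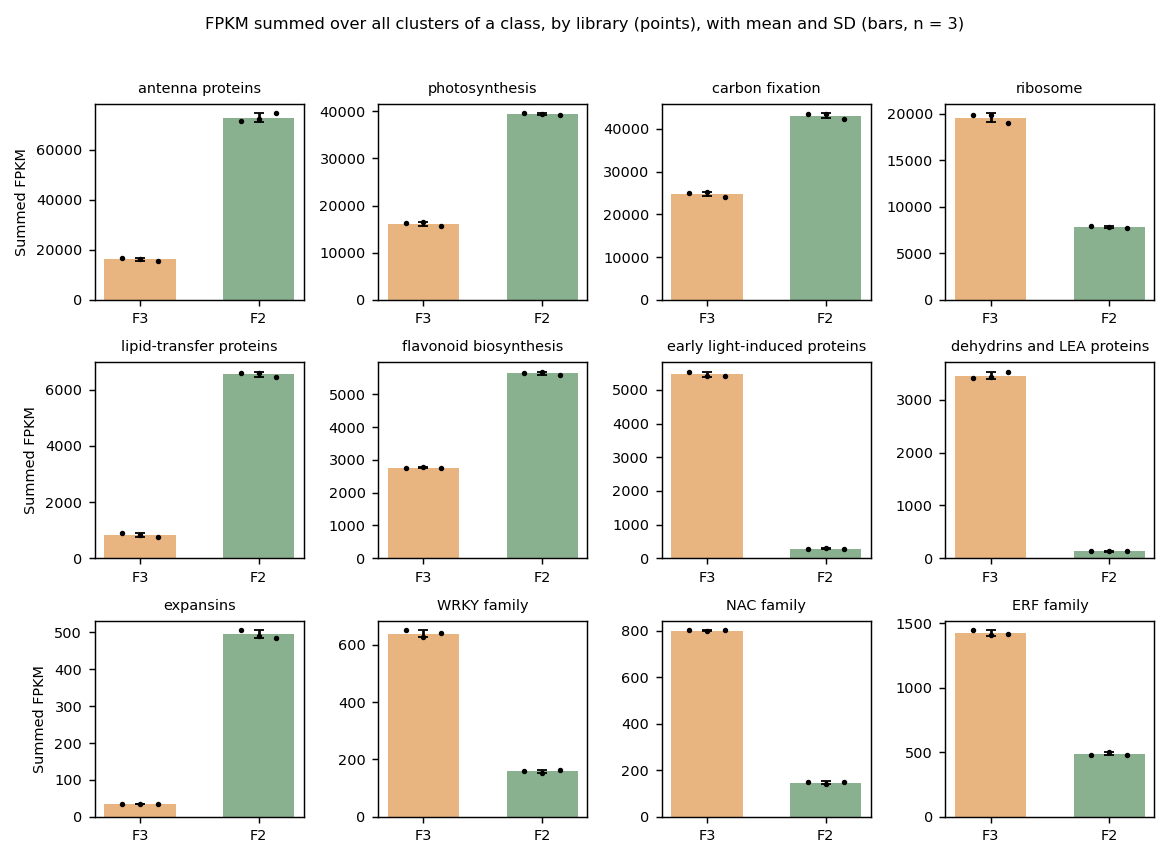
FPKM summed over all clusters of 12 gene classes in the 3 F3 libraries (left, orange) and the 3 F2 libraries (right, green) on linear axes from 0; points are libraries, bars the mean and error bars the SD. Antenna, photosynthesis, carbon fixation, lipid-transfer, flavonoid and expansin sums are lower at F3, and the ribosome, early light-induced, dehydrin, WRKY, NAC and ERF sums are higher, with no overlap between stages.

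Chlorophyll metabolism held clusters that rose and clusters that fell. The porphyrin pathway counted 14 clusters higher and 18 lower of 48, a lean that disappears with RLE scaling (16 and 16). Its abundant synthesis enzymes fell, and the summed level of the pathway was 1851 ± 8.6 FPKM at F3 and 4191 ± 23.3 FPKM at F2. The magnesium-protoporphyrin IX monomethyl ester cyclase (Cluster-46853.0), which makes the fifth ring of chlorophyll, had 139, 134 and 140.3 FPKM at F3, against 509, 509.99 and 506 FPKM at F2 (log2 fold change -2.05 ± 0.05 (SE), adjusted p = 3.8e-09). The ChlH subunit of magnesium chelatase (Cluster-52231.0) had 271, 258 and 266 FPKM at F3, against 572, 579.98 and 589 FPKM at F2 (log2 fold change -1.29 ± 0.08 (SE), adjusted p = 8.3e-07). Geranylgeranyl reductase (Cluster-30538.0), which makes the phytol tail, had 179, 172 and 176 FPKM at F3, against 553, 543 and 533 FPKM at F2 (log2 fold change -1.79 ± 0.07 (SE), adjusted p = 3.9e-08). All 3 were separated between the stages.

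Enzymes that take chlorophyll apart were among the senescence markers, of which 7 of 15 clusters rose and 2 fell. STAY-GREEN (Cluster-40373.0), which removes magnesium from chlorophyll, had 67.8, 72.5 and 65.2 FPKM at F3, against 5.43, 4.46 and 5.41 FPKM at F2 (log2 fold change 3.59 ± 0.12 (SE), adjusted p = 1.6e-08). Pheophytinase (Cluster-50981.0), which then cleaves off phytol, had 189, 190.4 and 183 FPKM at F3, against 55.8, 53.3 and 55.9 FPKM at F2 (log2 fold change 1.60 ± 0.06 (SE), adjusted p = 3.2e-08). NAC transcription factor 29 (Cluster-41002.0), whose Arabidopsis counterpart promotes leaf senescence, had 52.5, 49.4 and 50.6 FPKM at F3, against 0.59, 0.88 and 0.63 FPKM at F2 (log2 fold change 6.02 ± 0.15 (SE), adjusted p = 4.0e-09). Pheophorbide a oxygenase (Cluster-36604.1), which opens the chlorophyll ring, had 90.5, 98.4 and 92.8 FPKM at F3, against 43.3, 45.8 and 42.6 FPKM at F2 and stayed under the fold of the call (log2 fold change 0.94 ± 0.07 (SE), adjusted p = 3.0e-06). SAG12, the protease most used as a senescence marker, matched 2 clusters, of which Cluster-14907.1 was lower at F3 with 3.42, 2.89 and 4.99 FPKM at F3, against 28.1, 31.7 and 28.3 FPKM at F2 (log2 fold change -3.20 ± 0.18 (SE), adjusted p = 5.7e-07). The other, Cluster-14907.0, had 9.19, 8.52 and 9.54 FPKM at F3, against 4, 4.79 and 3.57 FPKM at F2 and stayed under the fold of the call (log2 fold change 0.97 ± 0.25 (SE), adjusted p = 0.0073). The chlorophyll(ide) b reductase NYC1, also in the list, had no cluster called higher. Its most abundant cluster (Cluster-56807.2) had 65.5, 65.5 and 65.4 FPKM at F3, against 54.1, 55.5 and 57.8 FPKM at F2. It was not called (log2 fold change 0.07 ± 0.06 (SE)), and the scarce Cluster-56807.3 fell. The oxygenase, SAG12 and NYC1 were looked up after their values were seen. The senescence markers summed to 810.3 to 836 FPKM at F3 and 324 to 331 FPKM at F2.

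The early light-induced proteins rose, while carotenoid enzymes were divided. All 3 clusters of early light-induced protein 1, a relative of the antenna proteins made under strong light, were higher at F3, and the most abundant (Cluster-47813.2) had 5472, 5341 and 5346 FPKM in the F3 libraries, against 281, 288 and 272 FPKM in the F2 libraries (log2 fold change 4.10 ± 0.06 (SE), adjusted p = 3.4e-10). The 3 clusters summed to 1426 ± 67.9 FPKM at F1, 284 ± 7.8 FPKM at F2 and 5464 ± 72.6 FPKM at F3 (SD, n = 3 each). In carotenoid biosynthesis 19 clusters rose and 26 fell of 62, but 14 and 10 with limma on log2(FPKM + 1). Zeaxanthin epoxidase (Cluster-37233.1), which turns zeaxanthin back into violaxanthin, had 156, 165 and 149 FPKM at F3, against 61.05, 62.1 and 58.5 FPKM at F2 (log2 fold change 1.23 ± 0.10 (SE), adjusted p = 8.0e-06). Beta-carotene hydroxylase 2 (Cluster-51695.3), which makes zeaxanthin, had 36.2, 29.6 and 29.7 FPKM at F3, against 89.2, 92.3 and 89.97 FPKM at F2 (log2 fold change -1.67 ± 0.12 (SE), adjusted p = 2.3e-06). The libraries of the stages did not overlap in either enzyme. The summed level of the carotenoid clusters did overlap, at 1269.9 ± 17.2 FPKM at F3 and 1249 ± 20.1 FPKM at F2.

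Starch metabolism shifted between its enzymes. Of 330 starch and sucrose clusters 147 fell and 77 rose. Of the 4 abundant called enzymes named here, the amylases, which degrade starch, and a glucan phosphorylase rose. Beta-amylase 3 (Cluster-30743.0), which releases maltose from starch in chloroplasts, had 875, 839.7 and 841 FPKM in the F3 libraries, against 25.7, 26.5 and 28.7 FPKM in the F2 libraries (log2 fold change 4.84 ± 0.06 (SE), adjusted p = 1.9e-10). Alpha-amylase 3 (Cluster-30298.0) had 207, 194 and 202 FPKM at F3, against 7.69, 8.6 and 8.29 FPKM at F2 (log2 fold change 4.44 ± 0.11 (SE), adjusted p = 3.9e-09). The H isozyme of alpha-glucan phosphorylase (Cluster-29024.0) had 206, 194 and 194 FPKM at F3, against 20.4, 21.2 and 19.96 FPKM at F2 (log2 fold change 3.12 ± 0.05 (SE), adjusted p = 2.7e-10). Granule-bound starch synthase 1 (Cluster-353.5), which makes amylose, had 426, 411 and 422 FPKM at F3, against 961, 961 and 959 FPKM at F2 (log2 fold change -1.36 ± 0.03 (SE), adjusted p = 4.0e-09). The amylases and the phosphorylase were thus above, and the synthase below, their F2 range in every F3 library. A further cluster of alpha-amylase 3 (Cluster-38341.11) had 111, 115 and 122 FPKM at F3, against 0, 0.09 and 0 FPKM at F2, with 11 counts in the F2 libraries together (log2 fold change 11.55 ± 0.59 (SE), adjusted p = 2.8e-07), and the 10 clusters of its number summed to 146 ± 5.6 FPKM at F3 and 12.1 ± 0.23 FPKM at F2.

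Respiratory pathways held no common direction. Oxidative phosphorylation had 53 clusters higher and 29 lower of 143 (median log2 fold change 0.65), although its summed level was lower, at 2674 ± 47.2 FPKM at F3 and 3460.2 ± 22.4 FPKM at F2. The 2 most abundant of its called clusters with a named match were the soluble inorganic pyrophosphatase 4 (Cluster-47561.0) with 316, 332 and 324 FPKM at F3, against 125, 127 and 118 FPKM at F2 (log2 fold change 1.23 ± 0.07 (SE), adjusted p = 5.3e-07) and the delta chain of the chloroplast ATP synthase (Cluster-44234.0) with 479, 466 and 467 FPKM at F3, against 861, 894 and 899.9 FPKM at F2 (log2 fold change -1.08 ± 0.07 (SE), adjusted p = 1.5e-06), the second not being called with RLE scaling (log2 fold change -0.90). Since the entry also holds such proteins from outside the respiratory chain, its summed level is not a measure of respiration alone. The citrate cycle had 8 higher and 14 lower of 42, but 11 and 10 with RLE scaling. Glycolysis had 45 and 59 of 164, but 51 and 50 with RLE scaling. NADP-dependent glyceraldehyde-3-phosphate dehydrogenase (Cluster-33499.8) was one of its clusters that fell, with 335, 323 and 323 FPKM at F3, against 1102, 1105 and 1090.1 FPKM at F2 (log2 fold change -1.91 ± 0.06 (SE), adjusted p = 1.1e-08).

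Flavonoid synthesis fell at its abundant steps, while other clusters of the same enzymes rose. The pathway had 44 clusters lower and 27 higher of 99, with a summed level of 2762 ± 7.9 FPKM at F3 and 5637 ± 57 FPKM at F2. Chalcone synthase 2 (Cluster-45237.0), the entry enzyme, had 288, 291 and 284 FPKM in the F3 libraries, against 747, 764 and 771 FPKM in the F2 libraries (log2 fold change -1.57 ± 0.07 (SE), adjusted p = 8.1e-08). Flavanone 3-hydroxylase (naringenin,2-oxoglutarate 3-dioxygenase, Cluster-54762.0) had 155, 157 and 153 FPKM at F3, against 557, 564 and 551 FPKM at F2 (log2 fold change -2.01 ± 0.06 (SE), adjusted p = 7.6e-09). Both enzymes stand early in the pathway. Flavonoid 3',5'-hydroxylase 1 (Cluster-21794.0), which adds the hydroxyl groups of blue pigments, had 5.83, 6.2 and 7.14 FPKM at F3, against 873, 882 and 845 FPKM at F2 (log2 fold change -7.26 ± 0.14 (SE), adjusted p = 1.2e-09). Leucoanthocyanidin dioxygenase (Cluster-35451.0), which makes anthocyanidins, had 11.6, 12.9 and 15.9 FPKM at F3, against 795, 785 and 753 FPKM at F2 (log2 fold change -6.02 ± 0.13 (SE), adjusted p = 2.1e-09). In Cluster-45237.0 and the clusters named for the other enzymes the stages were apart. Among clusters looked up after their values were seen, anthocyanidin reductase (Cluster-52032.0), which leads to condensed tannins, had 15.7, 16.02 and 14.8 FPKM at F3, against 301, 293 and 286 FPKM at F2 (log2 fold change -4.41 ± 0.07 (SE), adjusted p = 3.8e-10). Leucoanthocyanidin reductase (Cluster-35598.0), likewise looked up, had 51.8, 53.4 and 51.96 FPKM at F3, against 8.81, 8.51 and 8.46 FPKM at F2 (log2 fold change 2.45 ± 0.12 (SE), adjusted p = 1.8e-07).

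Chalcone isomerase and dihydroflavonol 4-reductase each had clusters moving in both directions, also looked up afterwards. The isomerase, of the second step, Cluster-2798.13 had 46.4, 47.2 and 47.4 FPKM at F3, against 587, 585 and 576 FPKM at F2, and Cluster-2798.17 of the same number 175, 207 and 184 FPKM at F3, against 15.2, 20.01 and 18.1 FPKM at F2 (-3.80 ± 0.04 and 3.25 ± 0.17 on the log2 scale, adjusted p = 1.9e-10 and 3.0e-07). The reductase Cluster-40089.3 had 6, 5.72 and 6.23 FPKM at F3, against 84.9, 81.5 and 80.05 FPKM at F2, and Cluster-40089.1 71.3, 73.5 and 73.4 FPKM at F3, against 10.2, 9.5 and 8.3 FPKM at F2 (-3.94 ± 0.07 and 2.97 ± 0.10, adjusted p = 5.8e-10 and 2.0e-08). Such clusters may split the reads of 1 gene. The number of the isomerase, which holds 18 clusters with 4 protein names, summed to 420 ± 5.9 FPKM at F3 and 685 ± 2.9 FPKM at F2, and that of the reductase to 102 ± 1.5 FPKM at F3 and 169 ± 1.8 FPKM at F2, both lower at F3 (adjusted p = 1.1e-10 and 2.0e-11 by edgeR's test on the sums).

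At the end of the pathway the enzymes that add sugars to anthocyanidins differed. All 8 clusters that KEGG lists under flavone and flavonol biosynthesis fell. Flavonol synthase/flavanone 3-hydroxylase, which it lists under flavonoid biosynthesis, went the other way, as looked up afterwards. Cluster-50697.0 had 43.7 ± 2.1 FPKM at F3 and 3.50 ± 0.49 FPKM at F2, and Cluster-50697.1 2.57 ± 0.43 FPKM and 0.20 ± 0.10 FPKM (log2 fold changes 3.46 and 3.61). Anthocyanin biosynthesis had 4 higher and 7 lower of 13, but 5 and 3 with limma on log2(FPKM + 1). Anthocyanidin 3-O-glucosyltransferase (Cluster-52166.0), which stabilises the pigment with glucose, had 233, 225 and 233 FPKM at F3, against 5.34, 6.22 and 5.87 FPKM at F2 (log2 fold change 5.12 ± 0.07 (SE), adjusted p = 2.7e-10). The anthocyanidin 5,3-O-glucosyltransferase (Cluster-36256.1) had 124, 93.7 and 92.2 FPKM at F3, against 242, 232 and 222 FPKM at F2 (log2 fold change -1.34 ± 0.18 (SE), adjusted p = 1.9e-04), but the 8 clusters of its number, summed, were not called (log2 fold change -0.26). Of 117 UDP-glycosyltransferase clusters, the wider family of such enzymes, 48 rose and 35 fell, among the first zeatin O-glucosyltransferase (Cluster-47444.0), which stores cytokinin, with 233, 232 and 234 FPKM at F3, against 27.5, 24.97 and 27.1 FPKM at F2 (log2 fold change 2.95 ± 0.07 (SE), adjusted p = 3.3e-09).

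In the phenylpropanoid pathway, which feeds lignin and flavonoids, 67 of 154 clusters fell and 36 rose. Shikimate O-hydroxycinnamoyltransferase (Cluster-37204.2) had 348, 324 and 326 FPKM at F3, against 107, 109 and 107 FPKM at F2 (log2 fold change 1.68 ± 0.05 (SE), adjusted p = 1.2e-08). Caffeic acid 3-O-methyltransferase (Cluster-22823.7), of the lignin branch, had 338, 336 and 303 FPKM at F3, against 17.9, 23.8 and 18.6 FPKM at F2 (log2 fold change 3.86 ± 0.09 (SE), adjusted p = 2.9e-09). Both were higher in every F3 library. The table lists 2 RuBisCO activase clusters under this pathway by their KEGG entry (Cluster-20500.1 and Cluster-20500.2), and they had 0, 1.02 and 1.32 FPKM at F3, against 216, 216 and 202 FPKM at F2 in the first and 7.38, 6.63 and 4.12 FPKM at F3, against 443, 430.3 and 408 FPKM at F2 in the second. Summed over the 21 clusters of their number the log2 fold change was -1.54. Laccases, which polymerise lignin precursors, had 15 of 19 clusters lower and 2 higher. Laccase-3 (Cluster-31887.0) had 10.98, 9.64 and 12.8 FPKM at F3, against 56.7, 60.7 and 57.1 FPKM at F2 (log2 fold change -2.56 ± 0.11 (SE), adjusted p = 8.4e-08), and Laccase-1 (Cluster-42634.0) had 0 counts in all F3 libraries against 23.3, 22.7 and 23.4 FPKM in the F2 libraries, at least 389-fold lower with a floor of 3 counts per library (adjusted p = 2.4e-07).

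Transcripts for the leaf surface were lower at F3. Of 88 cutin, suberine and wax clusters 43 fell and 8 rose, and of 52 clusters of fatty acid elongation 27 fell and 4 rose. The alkane hydroxylase MAH1 (Cluster-33610.11), which makes wax alcohols, had 1.63, 1.92 and 1.63 FPKM at F3, against 81.9, 80.99 and 80.2 FPKM at F2 (log2 fold change -5.66 ± 0.11 (SE), adjusted p = 1.5e-09). The 3-ketoacyl-CoA synthases elongate fatty acids for waxes, and 3-ketoacyl-CoA synthase 19 (Cluster-36072.0) had 3.86, 2.77 and 3.57 FPKM at F3, against 132, 135 and 126 FPKM at F2 (log2 fold change -5.44 ± 0.10 (SE), adjusted p = 8.0e-10). Synthases 10 (Cluster-29098.2) and 6 (Cluster-23854.0) had log2 fold changes of -4.79 ± 0.06 and -2.99 ± 0.08 (SE, adjusted p = 1.9e-10 and 7.9e-09). Lipid-transfer proteins, which carry lipids to the surface, had 18 of 30 clusters lower and 6 higher and a summed level of 834 ± 60.7 FPKM at F3 and 6552 ± 95.5 FPKM at F2. Non-specific lipid-transfer protein 1 (Cluster-56322.4) had 129.8, 125 and 130.04 FPKM at F3, against 1300.3, 1346 and 1272 FPKM at F2 (log2 fold change -3.51 ± 0.04 (SE), adjusted p = 1.9e-10). All these clusters were lower in every F3 library.

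Most clusters listed as markers of the surface cell types fell beside them. Guard cell markers had 7 of 9 clusters lower and 1 higher and summed to 9.39 to 9.92 FPKM at F3 and 37.9 to 39.3 FPKM at F2. FAMA (Cluster-43263.0), the factor that completes guard cell formation, had 0.04, 0.15 and 0.33 FPKM at F3, against 6.26, 6.01 and 6.91 FPKM at F2 (log2 fold change -5.40 ± 0.42 (SE), adjusted p = 4.7e-06). Epidermal patterning factor-like protein 9 (Cluster-34476.0), a promoter of stomata formation, had 0, 0 and 0.13 FPKM at F3, against 8.09, 9.33 and 9.71 FPKM at F2. It is in the list by its name and is not itself a mark of guard cells. Epidermis and trichome markers had 6 of 10 lower and 1 higher and summed to 51.8 to 53.5 FPKM at F3 and 265 to 271 FPKM at F2; 3-ketoacyl-CoA synthase 6 is in this list too. The part of the cell make-up of the leaf in the fall of the wax genes was not tested.

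Transcripts for cell wall loosening and water uptake, which drive expansion, were mostly lower at F3. Expansins, which loosen walls, had 9 of 15 clusters lower and 1 higher. Expansin-A1 (Cluster-47986.0) had 5.48, 4.6 and 4.54 FPKM in the F3 libraries, against 334, 334 and 329.8 FPKM in the F2 libraries (log2 fold change -6.25 ± 0.08 (SE), adjusted p = 1.9e-10). Expansin-A8 (Cluster-46520.0) had 1.99, 1.64 and 1.91 FPKM at F3, against 132, 118 and 116 FPKM at F2 (log2 fold change -6.22 ± 0.09 (SE), adjusted p = 2.7e-10), whereas Expansin-A15 (Cluster-47642.0) had 8.19, 6.97 and 7.14 FPKM at F3, against 0.42, 0.26 and 0.22 FPKM at F2 (log2 fold change 4.52 ± 0.32 (SE), adjusted p = 2.4e-06). The expansins summed to 2000 ± 46.2 FPKM at F1, 494 ± 10.7 FPKM at F2 and 34.6 ± 0.86 FPKM at F3 (SD, n = 3 each). Of 16 xyloglucan endotransglucosylases, which cut and rejoin wall polymers, 9 fell and 3 rose, and number 6 (Cluster-37828.0) had 10.8, 11.9 and 10.8 FPKM at F3, against 532, 544 and 527 FPKM at F2 (log2 fold change -5.73 ± 0.08 (SE), adjusted p = 2.0e-10). Pectin enzymes and their inhibitors had 33 of 60 lower and 7 higher, among them Pectinesterase inhibitor 10 (Cluster-36861.0) with 0.71, 0.46 and 1.38 FPKM at F3, against 84.2, 79.2 and 81.1 FPKM at F2 (log2 fold change -6.78 ± 0.23 (SE), adjusted p = 2.0e-08). Aquaporins, the water channels of membranes, had 17 of 28 lower and 4 higher, and PIP2-7 (Cluster-52017.0) had 25.3, 29.8 and 27.9 FPKM at F3, against 371, 370.2 and 363 FPKM at F2 (log2 fold change -3.90 ± 0.08 (SE), adjusted p = 1.8e-09). Between the stages no named cluster of this group overlapped.

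**Figure D3:**
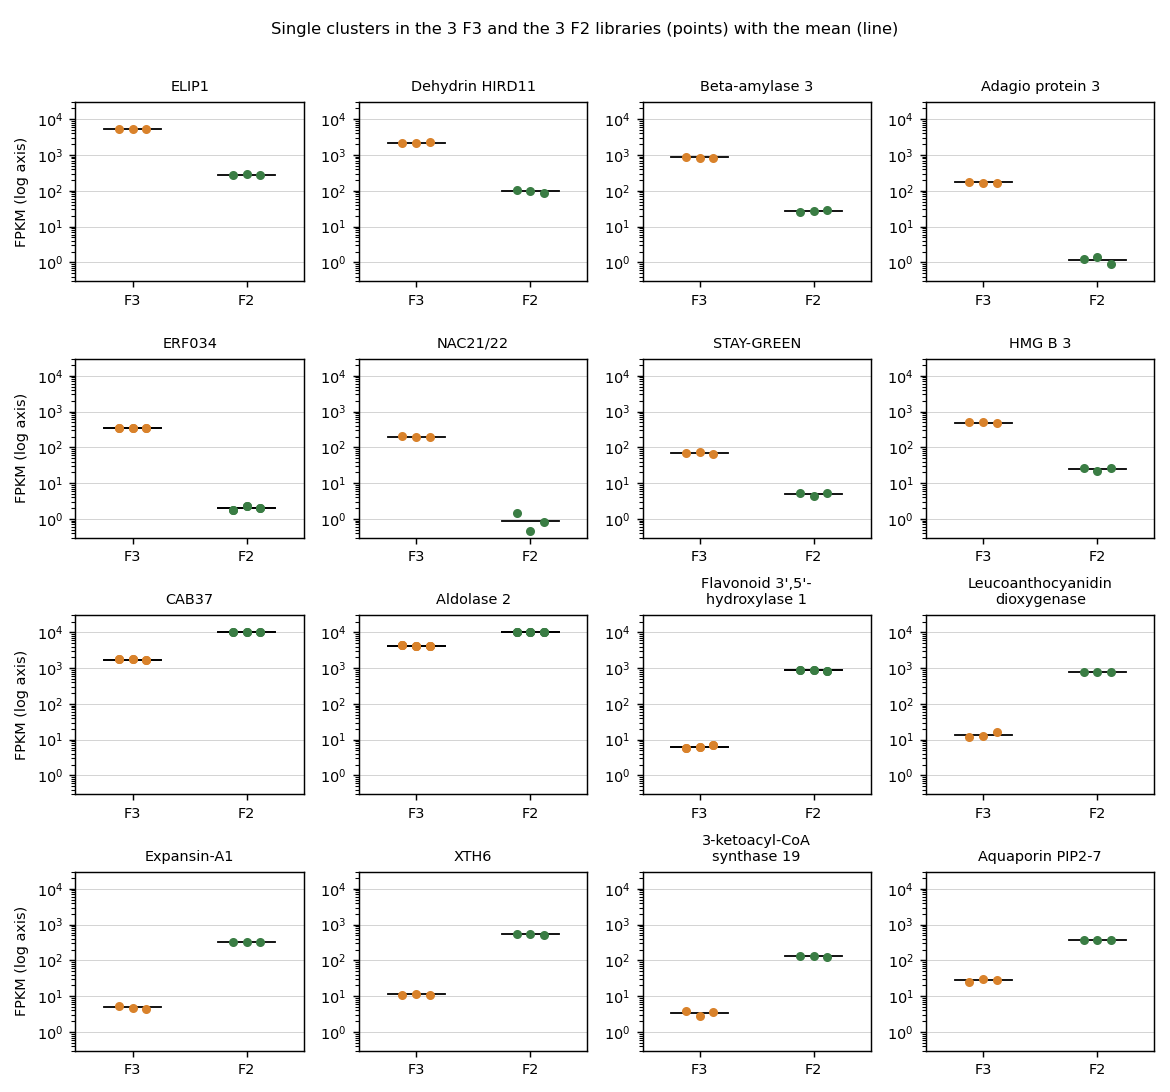
FPKM of 16 single clusters, log axis, in the 3 F3 libraries (left, orange points) and the 3 F2 libraries (right, green points) with the mean as a line. The upper 8 clusters are higher in every F3 library, as early light-induced protein 1 and beta-amylase 3, and the lower 8 are lower in every F3 library, as Expansin-A1 and leucoanthocyanidin dioxygenase.

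Clusters of AUX/IAA proteins were mostly lower too, while auxin response factor, cytoskeleton and cell cycle clusters were less uniform. Of 76 tubulin and kinesin clusters 32 fell, 9 rose and 35 were not called, and with RLE scaling 27 fell, a share close to the background. Among them were Tubulin beta-1 (Cluster-56989.0) with 46.8, 43.1 and 45.3 FPKM at F3, against 83.1, 85.2 and 86.9 FPKM at F2 (log2 fold change -1.08 ± 0.05 (SE), adjusted p = 2.2e-07) (with RLE scaling log2 fold change -0.90, not called) and, against it, Tubulin alpha-3 (Cluster-57399.1) with 60.4, 69.2 and 67.2 FPKM at F3, against 0.67, 0.78 and 0.62 FPKM at F2 (log2 fold change 5.998 ± 0.15 (SE), adjusted p = 4.0e-09). AUX/IAA proteins repress auxin response and are themselves induced by auxin, and 14 of 26 fell while 4 rose. IAA14 (Cluster-42586.0) had 28.5, 27.1 and 27.9 FPKM at F3, against 182, 179 and 170.4 FPKM at F2 (log2 fold change -2.83 ± 0.07 (SE), adjusted p = 3.4e-09). The auxin response factors (B3-ARF family) had 4 higher and 2 lower of 13 (30.8% and 15.4%). They summed to 118.6 ± 3.9 FPKM at F3 and 80.0 ± 3.7 FPKM at F2. Cyclins and cyclin-dependent kinases had 18 higher and 17 lower of 57 (19 and 13 with RLE scaling), and DNA replication 27 higher and 16 lower of 82. Histones had 7 higher and 12 lower of 33, Histone H2AX (Cluster-29610.0) having 150.3, 144 and 124 FPKM at F3, against 24.8, 22.4 and 28.4 FPKM at F2 (log2 fold change 2.30 ± 0.15 (SE), adjusted p = 1.2e-06) and Histone H1 (Cluster-32111.0) 215, 221 and 212 FPKM at F3, against 811, 800.4 and 764 FPKM at F2 (log2 fold change -2.03 ± 0.08 (SE), adjusted p = 7.4e-08). Dividing cell markers had 3 higher and 9 lower of 26 and summed to 262 to 268 FPKM at F3 and 203 to 213 FPKM at F2.

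The vascular markers were low in both stages. Xylem markers had 5 of 9 clusters lower and 0 higher and summed to 16.8 to 16.99 FPKM at F3 and 37.7 to 43.5 FPKM at F2, and the secondary wall cellulose synthase 4 (Cluster-38441.0) had 0.13, 0.15 and 0.28 FPKM at F3, against 5.27, 3.97 and 4.12 FPKM at F2 (log2 fold change -4.75 ± 0.30 (SE), adjusted p = 1.0e-06). Phloem markers had 5 of 12 lower and 1 higher and summed to 5.61 to 7.53 FPKM at F3 and 9.79 to 12.9 FPKM at F2. Mesophyll markers were matches to the RuBisCO small chain, RuBisCO activase and chlorophyll a/b-binding proteins. The list thus repeats antenna clusters described above and is no separate measure of that cell type. Of its 66 clusters 59 fell and 1 rose. They summed to 35441 to 37210 FPKM at F3 and 107960 to 109200 FPKM at F2, the highest of the marker lists at both stages. The part of these cell types in the results was not tested.

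The machinery of protein synthesis was higher at F3. Of 239 ribosome clusters 118 rose and 47 fell, with a summed level of 19576 ± 487 FPKM at F3 and 7785 ± 92.5 FPKM at F2, and of 46 translation initiation and elongation factors 21 rose and 7 fell. The 60S protein L10 (Cluster-55043.0) had 641, 663 and 633 FPKM at F3, against 209.7, 207 and 196 FPKM at F2 (log2 fold change 1.49 ± 0.07 (SE), adjusted p = 1.0e-07). The 40S protein S2-4 (Cluster-46164.1) had 475, 463 and 456 FPKM at F3, against 145, 147 and 148 FPKM at F2 (log2 fold change 1.5 ± 0.04 (SE), adjusted p = 8.0e-09). Eukaryotic initiation factor 5 (Cluster-55934.5) had 336, 349 and 396 FPKM at F3, against 69.8, 67.1 and 61.7 FPKM at F2 (log2 fold change 2.27 ± 0.08 (SE), adjusted p = 2.0e-08). The F3 values were above all F2 values in each. The ribosome clusters summed to 15285 ± 985 FPKM at F1, 7785 ± 92.5 FPKM at F2 and 19576 ± 487 FPKM at F3 (SD, n = 3 each), so that F2 was the low stage of the 3.

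Splicing and ubiquitin clusters leaned higher, and proteases lower. Spliceosome clusters had 115 higher and 87 lower of 309, with the glycine-rich RNA-binding protein 2, a mitochondrial protein in Arabidopsis (Cluster-45922.0) at 198, 212 and 222 FPKM at F3, against 30.8, 30.8 and 29.2 FPKM at F2 (log2 fold change 2.63 ± 0.09 (SE), adjusted p = 2.5e-08). Ubiquitin mediated proteolysis had 57 higher and 34 lower of 150, and the proteasome 12 and 7 of 33. Proteases had 31 higher and 67 lower of 152, and in this list the called cluster with the highest level was a Cysteine proteinase inhibitor (Cluster-43283.0), which blocks such enzymes, with 369.5, 381 and 368 FPKM at F3, against 125, 123 and 117 FPKM at F2 (log2 fold change 1.45 ± 0.11 (SE), adjusted p = 2.9e-06). The subtilisin-like protease SBT1.7 (Cluster-37061.1) had 11.5, 12.3 and 11.9 FPKM at F3, against 146, 148 and 139 FPKM at F2 (log2 fold change -3.77 ± 0.06 (SE), adjusted p = 4.9e-10). Autophagy clusters were mostly not called (4 higher, 6 lower of 32), and with RLE scaling the counts were 7 and 6.

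Dehydrins and other late embryogenesis abundant proteins, which stabilise proteins and membranes as cells lose water, rose almost throughout. Of 15 clusters 13 rose and 1 fell, with a median log2 fold change of 5.37. With limma on log2(FPKM + 1) 10 rose and 0 fell, with a median of 2.82. By cluster number 9 of 10 rose. The rise of the scarce Cluster-51413.7, with 1.18, 0 and 0 FPKM at F3, rested on 1 library. Dehydrin HIRD11 (Cluster-35923.0) had 2169, 2174 and 2241 FPKM in the F3 libraries, against 104, 97.1 and 89.1 FPKM in the F2 libraries (log2 fold change 4.33 ± 0.12 (SE), adjusted p = 6.7e-09). COR47 (Cluster-57650.8), a cold-regulated dehydrin, had 544, 536 and 578 FPKM at F3, against 10.1, 8.34 and 10.2 FPKM at F2 (log2 fold change 5.70 ± 0.13 (SE), adjusted p = 2.6e-09). Lea14-A (Cluster-57369.0) had 191, 211 and 199.7 FPKM at F3, against 0.72, 1.87 and 2.15 FPKM at F2 (log2 fold change 6.82 ± 0.28 (SE), adjusted p = 6.8e-08). In none of HIRD11, COR47 and Lea14-A did the stages overlap. The list summed to 1578 ± 158 FPKM at F1, 133 ± 5.9 FPKM at F2 and 3457 ± 65.7 FPKM at F3 (SD, n = 3 each). The only cluster of it that fell, named after its value was seen, was the scarce Cluster-57369.1 of Lea14-A, with 0.197 ± 0.17 FPKM at F3 and 1.34 ± 0.33 FPKM at F2.

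Heat shock protein clusters were mostly lower and those of the factors that control them mostly higher. Of 39 heat shock protein clusters 27 fell and 4 rose, but the summed level differed little, at 753 ± 32.1 FPKM at F3 and 821 ± 19.4 FPKM at F2. A small chloroplast heat shock protein (Cluster-38962.0) had 7.1, 7.58 and 7.17 FPKM at F3, against 74.7, 78.5 and 68.95 FPKM at F2 (log2 fold change -3.50 ± 0.08 (SE), adjusted p = 2.5e-09). The heat shock cognate 70 kDa protein 2 (Cluster-53127.3), a chaperone also made without heat, was one of those that rose, with 304, 287 and 294 FPKM at F3, against 92.5, 97.8 and 90.2 FPKM at F2 (log2 fold change 1.49 ± 0.05 (SE), adjusted p = 2.1e-08). Of 17 heat stress transcription factor clusters 9 rose and 5 fell. Factor A-3 (Cluster-43572.0) had 38.4, 36.6 and 41.3 FPKM at F3, against 0.94, 0.77 and 1.07 FPKM at F2 (log2 fold change 5.23 ± 0.15 (SE), adjusted p = 9.9e-09). Factor C-1 (Cluster-37608.0) had 68.8, 66.8 and 69.9 FPKM at F3, against 3.73, 3.14 and 3.52 FPKM at F2 (log2 fold change 4.17 ± 0.10 (SE), adjusted p = 3.2e-09). The F3 and F2 ranges were apart in these 4 clusters. Summed over its number, factor C-1 had a log2 fold change of 1.44. Over all cluster numbers 7 heat stress factors rose and 0 fell.

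Clock and day-length genes changed in both directions. Of 109 circadian rhythm clusters 52 rose and 31 fell. Adagio protein 3 (Cluster-24888.1), the blue-light receptor FKF1 that times flowering, had 175, 169 and 169.7 FPKM in the F3 libraries, against 1.21, 1.37 and 0.92 FPKM in the F2 libraries (log2 fold change 7.02 ± 0.20 (SE), adjusted p = 8.8e-09). The pseudo-response regulator APRR5 (Cluster-43012.5), a daytime repressor of the clock, had 167, 166 and 161 FPKM at F3, against 5.85, 6.5 and 5.83 FPKM at F2 (log2 fold change 4.60 ± 0.17 (SE), adjusted p = 3.9e-08). REVEILLE 1 (Cluster-32083.0), a morning factor linking clock and auxin, had 74.2, 76.9 and 77.02 FPKM at F3, against 17.2, 17.5 and 17.97 FPKM at F2 (log2 fold change 1.91 ± 0.07 (SE), adjusted p = 2.9e-08). All F3 libraries were above all F2 libraries. GIGANTEA, a partner of Adagio protein 3, had 7 of 9 clusters higher and 0 lower and a sum of 86.4 ± 4.5 FPKM at F3 and 27.1 ± 0.94 FPKM at F2, and its Cluster-55214.7 had 11.2, 12.2 and 11.5 FPKM at F3, against 0, 0 and 0 FPKM at F2, at least 606-fold higher. Others, looked up afterwards, fell: CONSTANS-LIKE 6 (Cluster-35017.0) had 14.2, 16.1 and 17.5 FPKM at F3, against 71.6, 70.6 and 71.8 FPKM at F2 (log2 fold change -2.32 ± 0.08 (SE), adjusted p = 3.1e-08), and PRR73 (Cluster-50790.1) 16.1, 12.7 and 17.5 FPKM at F3, against 43.03, 40.9 and 45.4 FPKM at F2 (log2 fold change -1.65 ± 0.13 (SE), adjusted p = 5.4e-06). Clusters of that number, which also holds other pseudo-response regulators, moved both ways, 3 higher and 2 lower of 8, and summed to 48.6 ± 1.5 FPKM at F3 and 60.7 ± 1.3 FPKM at F2. The KEGG entry of this pathway also holds chalcone synthase. By the study's methods leaves were taken in the morning at every stage, but the hour of each library is not given, and its part in these values was not tested.

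Transcription factors as a whole were near the background, with 249 higher and 305 lower of 844 clusters in the factor families, and 282 and 272 with RLE scaling, but single families stood at opposite ends. WRKY factors, regulators of defence and senescence, had 28 of 39 clusters higher and 3 lower. NAC factors had 22 of 34 higher and 4 lower, and ethylene response factors 32 of 53 higher and 13 lower. Their summed levels were 639.8 ± 12.2 FPKM at F3 and 158 ± 5.8 FPKM at F2 for WRKY, 802 ± 2.1 FPKM at F3 and 147 ± 5.9 FPKM at F2 for NAC and 1425 ± 20.6 FPKM at F3 and 489 ± 13.2 FPKM at F2 for the ethylene response factors.

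**Figure D4:**
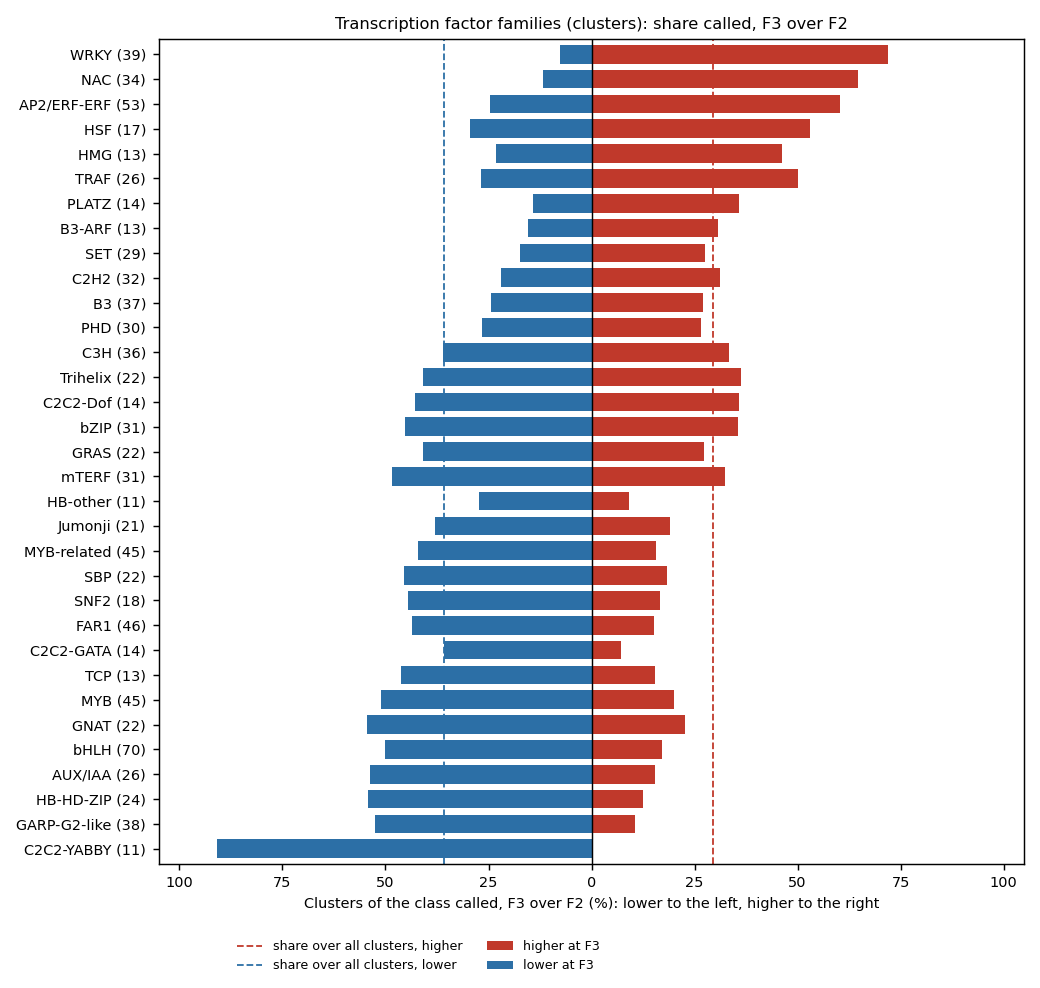
Share of the clusters of 33 transcription factor families of 10 or more clusters called lower (left, blue) or higher (right, red) at F3 than at F2, with the number of clusters in brackets and dashed lines at the shares over all 24385 clusters. WRKY, NAC and ERF are at the top with most clusters higher, and YABBY, GARP-G2-like and HD-ZIP at the bottom with most called clusters lower.

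ERF034 (Cluster-49576.0) had 344, 347 and 352 FPKM in the F3 libraries, against 1.82, 2.29 and 2.04 FPKM in the F2 libraries (log2 fold change 7.24 ± 0.23 (SE), adjusted p = 1.6e-08). NAC21/22 (Cluster-6661.1), which in Arabidopsis carries auxin signals in root branching, had 201, 189 and 193 FPKM at F3, against 1.42, 0.47 and 0.8 FPKM at F2 (log2 fold change 7.50 ± 0.29 (SE), adjusted p = 4.2e-08). NAC48 (Cluster-37911.0) had 103, 99.95 and 92.6 FPKM at F3, against 9.63, 9.63 and 9.31 FPKM at F2 (log2 fold change 3.21 ± 0.07 (SE), adjusted p = 1.6e-09). WRKY47 (Cluster-35271.0) had 93.9, 102 and 97.96 FPKM at F3, against 8.3, 7.06 and 8.93 FPKM at F2 (log2 fold change 3.44 ± 0.12 (SE), adjusted p = 2.7e-08). F3 and F2 libraries did not overlap in these factors. RAP2-4 (Cluster-55573.0), also an ethylene response family member, was lower with 56.1, 55.6 and 54.6 FPKM at F3, against 103, 101 and 96.8 FPKM at F2 (log2 fold change -1.02 ± 0.05 (SE), adjusted p = 1.8e-07). With RLE scaling it was not called (log2 fold change -0.84). Looked up afterwards, DREB2A (Cluster-46265.0), a regulator of drought genes, had 18.4, 18.3 and 17.4 FPKM at F3, against 0.3, 0.34 and 0.32 FPKM at F2 (log2 fold change 5.71 ± 0.21 (SE), adjusted p = 3.7e-08), and WRKY75 (Cluster-43281.0), a senescence regulator in Arabidopsis, 17.01, 17.6 and 20.2 FPKM at F3, against 0.59, 0.42 and 1.07 FPKM at F2 (log2 fold change 4.58 ± 0.42 (SE), adjusted p = 1.3e-05). High mobility group proteins, which bend DNA in chromatin, had 6 higher and 3 lower of 13, HMGB3 (Cluster-48680.1) having 495, 494 and 482 FPKM at F3, against 25.8, 22.4 and 26.4 FPKM at F2 (log2 fold change 4.16 ± 0.11 (SE), adjusted p = 4.7e-09).

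Several families known from leaf patterning and growth leaned lower. YABBY factors, which mark the lower side of young leaves, had 10 of 11 clusters lower and 0 higher, with YABBY 4 (Cluster-56617.0) at 16.6, 17.2 and 18.1 FPKM at F3, against 39.5, 35.8 and 40.1 FPKM at F2 (log2 fold change -1.27 ± 0.07 (SE), adjusted p = 6.6e-07). HD-ZIP factors had 13 of 24 lower and 3 higher, HAT5 (Cluster-55466.0) having 12, 12.4 and 10.4 FPKM at F3, against 47.9, 45.9 and 47.4 FPKM at F2 (log2 fold change -2.18 ± 0.09 (SE), adjusted p = 7.8e-08) and, opposite to it, HOX6 (Cluster-36704.0) 51.8, 49.5 and 50.98 FPKM at F3, against 6.26, 5.79 and 5.11 FPKM at F2 (log2 fold change 2.87 ± 0.09 (SE), adjusted p = 1.6e-08). MYB factors had 23 of 45 lower and 9 higher, MYB-related factors 19 of 45 lower and 7 higher, and bHLH factors 35 of 70 lower and 12 higher. RADIALIS (Cluster-39857.2), a MYB-related factor of flower symmetry in snapdragon, had 4.69, 4.7 and 3.61 FPKM at F3, against 129, 117 and 115 FPKM at F2 (log2 fold change -4.95 ± 0.15 (SE), adjusted p = 1.4e-08). Squamosa promoter-binding-like factor 4 (Cluster-35087.0), of a family that times developmental phases, had 1.95, 1.75 and 1.14 FPKM at F3, against 18.6, 17.8 and 18.8 FPKM at F2 (log2 fold change -3.66 ± 0.20 (SE), adjusted p = 4.9e-07), and 10 of 22 clusters of its family were lower and 4 higher. TCP factors had 2 higher and 6 lower of 13, but 4 and 3 with RLE scaling. No named cluster of these families overlapped between the stages.

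Hormone genes moved in both directions. Hormone signal transduction had 106 higher and 163 lower of 381. ETHYLENE INSENSITIVE 3 (Cluster-34557.0), the central ethylene factor, had 194, 195 and 197 FPKM at F3, against 63.6, 59.3 and 63.9 FPKM at F2 (log2 fold change 1.48 ± 0.06 (SE), adjusted p = 5.5e-08). TIFY 6B (Cluster-44687.1), a repressor of jasmonate response, had 48.9, 43.9 and 49.2 FPKM at F3, against 242, 244 and 238 FPKM at F2 (log2 fold change -2.52 ± 0.05 (SE), adjusted p = 1.2e-09). DELLA protein GAI (Cluster-19281.0), a repressor of gibberellin response, had 31.2, 32.6 and 30.4 FPKM at F3, against 57.3, 57.5 and 57.8 FPKM at F2 (log2 fold change -1.04 ± 0.06 (SE), adjusted p = 4.6e-07). With RLE scaling GAI was not called (log2 fold change -0.86). EIN3 was above, and the other 2 below, their F2 range. Synthesis of jasmonate and leaf aldehydes belongs to alpha-linolenic acid metabolism, with 53 of 88 clusters lower and 23 higher. Its Linoleate 13S-lipoxygenase 2-1 (Cluster-56222.2) had 93.1, 94.2 and 86.2 FPKM at F3, against 319.6, 306 and 306 FPKM at F2 (log2 fold change -1.93 ± 0.08 (SE), adjusted p = 7.4e-08). The phospholipase A1-IIdelta (Cluster-49519.0), which frees fatty acids, had 34.04, 35.9 and 33.2 FPKM at F3, against 156, 155 and 149.9 FPKM at F2 (log2 fold change -2.33 ± 0.08 (SE), adjusted p = 2.1e-08).

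Defence classes differed in their counts. Disease resistance proteins, the receptors of pathogen effectors inside cells, had 111 of 229 clusters lower and 38 higher. Receptor kinases had 176 higher and 200 lower of 571, but 188 and 175 with RLE scaling, while their summed level was 4604 ± 67.7 FPKM at F3 and 2890.4 ± 43.7 FPKM at F2. WAKL2 (Cluster-11417.6), related to the receptor kinases that bind wall pectin, had 584, 581 and 602 FPKM in the F3 libraries, against 20.4, 21.6 and 17.1 FPKM in the F2 libraries (log2 fold change 4.63 ± 0.10 (SE), adjusted p = 2.1e-09). It is 1 of 19 clusters of its number, with 8 protein names, of which 16 rose and 1 fell, and which summed to 1519 ± 37.2 FPKM at F3 and 57.4 ± 8.7 FPKM at F2. Plant-pathogen interaction had 171 higher and 224 lower of 595 (28.7% and 37.6%), near the shares over all clusters.

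Transport and detoxification had single clusters with large rises. ABC transporters had 61 of 155 clusters lower and 33 higher, yet the pleiotropic drug resistance protein 1 (Cluster-57092.10), an exporter of terpenoids in tobacco, had 458, 472 and 491 FPKM at F3, against 81.8, 84.4 and 77.9 FPKM at F2 (log2 fold change 2.38 ± 0.05 (SE), adjusted p = 1.1e-09). Sugar transporters had 17 higher and 17 lower of 44, and Sugar transport protein 13 (Cluster-13221.1), which takes hexoses into cells, had 67.7, 68.4 and 69.6 FPKM at F3, against 7.94, 8.86 and 8.35 FPKM at F2 (log2 fold change 2.96 ± 0.06 (SE), adjusted p = 1.5e-09). Cytochrome P450 clusters had 45 higher and 36 lower of 108, with CYP736A12 (Cluster-44023.2) at 160.2, 163 and 162 FPKM at F3, against 38.5, 39.9 and 37.3 FPKM at F2 (log2 fold change 1.91 ± 0.06 (SE), adjusted p = 1.6e-08). Glutathione metabolism had 31 and 36 of 97, turning to 34 and 31 with RLE scaling. In the terpenoid backbone pathway 33 of 73 fell and 14 rose, the tricyclene synthase EBOS (Cluster-48660.2), which makes volatile monoterpenes, having 408, 413 and 425 FPKM at F3, against 1296, 1310.5 and 1297 FPKM at F2 (log2 fold change -1.81 ± 0.06 (SE), adjusted p = 2.5e-08). The stages did not overlap in any of these named clusters.

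Clusters of 1 number, which can be transcripts of 1 gene, did not always move together. Of 3629 numbers with more than 1 cluster, 1052 held both a cluster that rose and one that fell. With 29.5% of all clusters higher and 35.8% lower, unrelated clusters would often differ in this way too. The count was not tested against that. Among the called clusters 469 that rose had 0 counts in every F2 library and 1290 that fell had 0 counts in every F3 library. Oligopeptide transporter 1 (Cluster-57783.2) had 0 counts in the F3 libraries against 26.5, 24.6 and 23.3 FPKM in the F2 libraries, at least 546-fold lower, and Albumin-2 (Cluster-4629.0) 0 counts against 34.1, 33.8 and 30.1 FPKM in the F2 libraries, at least 599-fold lower. Thiamine thiazole synthase 2 (Cluster-48091.6), of vitamin B1 synthesis, had 12.2, 13.2 and 10.1 FPKM at F3, against 0, 0 and 0 FPKM at F2, at least 186-fold higher, and UDP-glycosyltransferase 83A1 (Cluster-53592.0) 19.8, 18.6 and 17.6 FPKM at F3, against 0, 0 and 0 FPKM at F2, at least 142-fold higher. Summed over their numbers, Oligopeptide transporter 1 had a log2 fold change of -5.45 and Thiamine thiazole synthase 2 of 2.91. A number is not always 1 gene, since that of aldolase 2 holds 4 different protein names.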

How the data were processed

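RNA of leaves was sequenced by the authors as paired reads and assembled without a genome into transcript clusters, of which they deposited those called in at least 1 of their comparisons between stages. The deposited counts are the authors' raw counts per cluster, and the deposited FPKM values are the authors' counts scaled to transcript length and library size. No source used here names the assembler, aligner or counter. The table also holds the authors' fold changes and p-values between stages, which were not used. All columns of values per library were mapped to a sample (0 were not).

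The counts of all 9 libraries were fitted with stage as the factor by edgeR 4.0.16 (quasi-likelihood test, TMM scaling, R 4.3.3), with no filter on low values, and the contrast F3 minus F2 was tested with Benjamini-Hochberg adjustment over 24385 clusters. A call needed an adjusted p under 0.05 and a fold of 2. Fitted log2 fold changes lie about 0.17 below the ratio of the FPKM values, because TMM scaled over the table and FPKM over the whole library. Levels are FPKM. In the range of 8657054 to 14284676 counts per library, p-values cover counting error and the spread between libraries. Where a stage had 0 counts in all libraries, a fold is a lower bound from a floor of 3 counts per library. The model was tested on simulated data with 100 clusters changed 2.5-fold and 100 changed 4-fold. It called 30 and 56 of these, 0 with the wrong sign, and 4 of 24185 unchanged clusters. The simulation changed far fewer clusters than were called in the data, so it does not stand for their setting.

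Gene classes were taken from the KEGG pathway, Swiss-Prot and transcription factor columns. Members and lists were chosen with earlier results of these data known. A cluster carries the name of a protein of another species, and its KEGG and Swiss-Prot matches can differ. Named clusters are the 10 largest rises and falls with at least 10 FPKM at F3 or F2, no overlap between the stages and a cluster number called in the same direction, and in each class up to 4 called clusters (in each transcription factor family up to 3) with the highest mean FPKM, 1 per protein name. Those chosen after their values were seen are marked so. Counts are described beside the share over all clusters, with no set test. The alternatives were DESeq2 1.42.0, RLE scaling, library sizes implied by the FPKM values, limma 3.58.1 on log2(FPKM + 1) and log2(FPKM + 0.1), a minimum of 1 FPKM, the stages F3 and F2 alone, a replicate block, no fold threshold, sums over cluster numbers and leaving out each library.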

Additional observations from a re-analysis of the deposited data

How the results depend on the processing

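The count of called clusters (15923) moved by over 1.5 times under 2 alternatives. It was 10201 with limma on log2(FPKM + 1), 4672 of them lower at F3. Summing the clusters of 1 number gave 9556 called numbers, 4233 higher and 5323 lower, from fewer features (14454). Under the others it was 14109 to 18048. Without a fold threshold 7990 clusters were higher and 10058 lower. Leaving out 1 library at a time gave 14772 to 15023 calls, 6356 to 6724 higher and 8087 to 8476 lower. With the replicate number as a block the count was 15143 (6776 higher, 8367 lower). Libraries of the same number did not deviate together (correlations -0.01, 0.01 and -0.01), so no pairing by number was seen. With so few libraries this cannot show that those of 1 number came from different plants. Of the 331 clusters named by the rule, 35 fell short of the call with RLE scaling, 34 with DESeq2 and 45 with limma on log2(FPKM + 1), none with a turned direction. Summed over their number, 42 fell short of the call and 5 turned direction, to log2 fold changes of 0.92 (Cluster-53098.4), -0.031 (Cluster-12723.1), -0.33 (Cluster-53257.9), -0.14 (Cluster-53200.9) and -0.14 (Cluster-57247.3), none of which is described above. Sums over a number combine clusters that may be different genes. Assembly quality and the clusters left out of the table limit what the counts can show.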
